A study of Saccharomyces cerevisiae with 13 samples.

Results

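The purine synthesis genes described here are ADE1, ADE2, ADE3, ADE4, ADE5,7, ADE6, ADE8, ADE12, ADE13 and ADE17 of *S. cerevisiae*. They were chosen by name, and all 10 were found among the 4280 transcript models of the deposited tables by their systematic names, which are given with each gene. The study paired a nuclear run-on assay, in which RNA polymerases already on the DNA extend and label their transcripts with biotin-UTP in permeabilized cells, with sequencing of total RNA that was not selected for the label. It asked how transcription and RNA abundance relate to each other, and how both respond to heat shock. The groups were NRO (HS) and total RNA (HS), from strain BY4742 moved in log growth to 39° for 20 min, and NRO and total RNA, from the same strain kept in log growth at 30°. All cultures grew in rich medium with glucose (YPD), and BY4742 carries functional copies of the ADE genes. The labels give 3 libraries for each group, and 1 further NRO library made from 3′ ends was not analysed here.

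The authors merged the 3 libraries of a group before computing the values, so that each gene has 1 value in each group and no spread between cultures. No p-value was therefore computed. Each value is a read density, that is the mean depth of uniquely mappable exonic bases, counted from 201 bp downstream of the transcription start site (TSS) and given per 1000000 bases acquired. It is a value per base, but nascent RNA was selected before it was fragmented, so that a 5′ stretch is present in more nascent molecules than a 3′ stretch. Levels in NRO therefore also depend on transcript length, and the regions of the 10 genes ran from 647 bases in ADE8 to 4275 bases in ADE6. Reads were estimated from the depth, and the intervals given below are 95% intervals for counting error alone. They leave out the differences between cultures, and reads from PCR-amplified libraries are not independent molecules, so that the true uncertainty is larger. The estimated reads were 378273 in NRO (HS), against 2491144 in NRO, and 656630 in total RNA (HS), against 894262 in total RNA. A median transcript model held 8, 69, 11 and 23 reads in NRO (HS), NRO, total RNA (HS) and total RNA, so that the heat shock libraries limit the precision. A gene was counted as higher or lower where the ratio of densities passed 2-fold. Since each group is 1 pooled value, such a call compares 2 pools of libraries and has no replicate check.

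Cells build purine nucleotides de novo on phosphoribosyl pyrophosphate (PRPP). Ade4 catalyses the first step, and the enzymes encoded by ADE5,7, ADE8, ADE6, ADE2, ADE1, ADE13 and ADE17 carry the ring to inosine monophosphate (IMP). Ade12 and Ade13 then convert IMP to AMP, while inosine monophosphate dehydrogenases and Gua1 lead to GMP. Ade3 supplies the formyl-tetrahydrofolate that the pathway consumes. In yeast, the transcription factors Bas1 and Pho2 together activate many of these genes when adenine is scarce, and Bas1 binds DNA at sites with the core TGACTC. The element of Gcn4, the activator of amino acid synthesis genes, contains the same 6 letters (TGACTCA).

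The promoters are shown because all 10 genes share this 6-base core. On both strands of the 500 bases before the start codon, TGACTC was found in 10 of the 10 genes, against 12.6% of the 6008 protein-coding genes of the R64 assembly (760 genes). At least 2 matches lay before 6 of the 10 genes, against 1.43% of all genes. Within 300 bases, 9 of the 10 had a match, against 7.76% of all genes, and the exception was ADE4, with its match 357 bases before the start codon. The 30 bases around the match nearest to each start codon are given below from R64 (RefSeq), 5′ to 3′ on the coding strand. Capitals mark TGACTC, or GAGTCA where the core lies on the other strand. Positions of these windows are in R64, and those of the measured regions further on are in sacCer2, the build of the authors' values.
ADE4, chrXIII:867431-867460, minus strand: gacccgatgtatTGACTCttcctgaccgaa
ADE5,7, chrVII:56286-56315, plus strand: acaagtgccgacTGACTCgtgtcctggtaa
ADE8, chrIV:1289016-1289045, minus strand: atgagTGACTCgttgctagTGACTCtgacc
ADE6, chrVII:616224-616253, minus strand: ttcaaccgttccTGACTCtttcctgctgac
ADE2, chrXV:566327-566356, minus strand: atactaagtgatTGACTCttgctgaccttt
ADE1, chrI:169141-169170, plus strand: ttattcacGAGTCAgtcTGACTCttgcgag
ADE13, chrXII:844054-844083, plus strand: cctccgcgagcaGAGTCAaacttcaaacaa
ADE17, chrXIII:509440-509469, minus strand: ccagaaatgaatTGACTCctctcataactt
ADE12, chrXIV:234179-234208, plus strand: atccttttcattGAGTCAcagattaacaaa
ADE3, chrVII:905709-905738, plus strand: atatatttgccaTGACTCctcccagtgaca

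The matches lay at similar distances from the start codon. In 8 of the 10 genes the nearest one began between 153 and 222 bases before it, at 153 bases in ADE2 and 222 bases in ADE12, while that of ADE6 began at 276 and that of ADE4 at 357 bases. ADE8 and ADE1 held both of their matches inside the printed 30 bases, on the same strand in ADE8 and on opposite strands in ADE1. ADE13 and ADE12 had the core on the other strand only. The longer TGACTCA was found before ADE12 alone of the 10, against 4.01% of all genes. No match of the 10 genes lay within the coding sequence of another gene. ADE16, which encodes the second enzyme with the activity of Ade17, had no match within 500 bases. Of 34 other genes of purine metabolism and its regulation, ADE16 among them, 13 (38.2%) had a match within 500 bases. At least 2 matches lay before 20.6% of these genes, namely MTD1, SHM2, GCV2, GCV3, HIS1, HIS4 and HIS7. A match is a description of the sequence, and whether a factor was bound there was not measured.

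**Figure D1:**
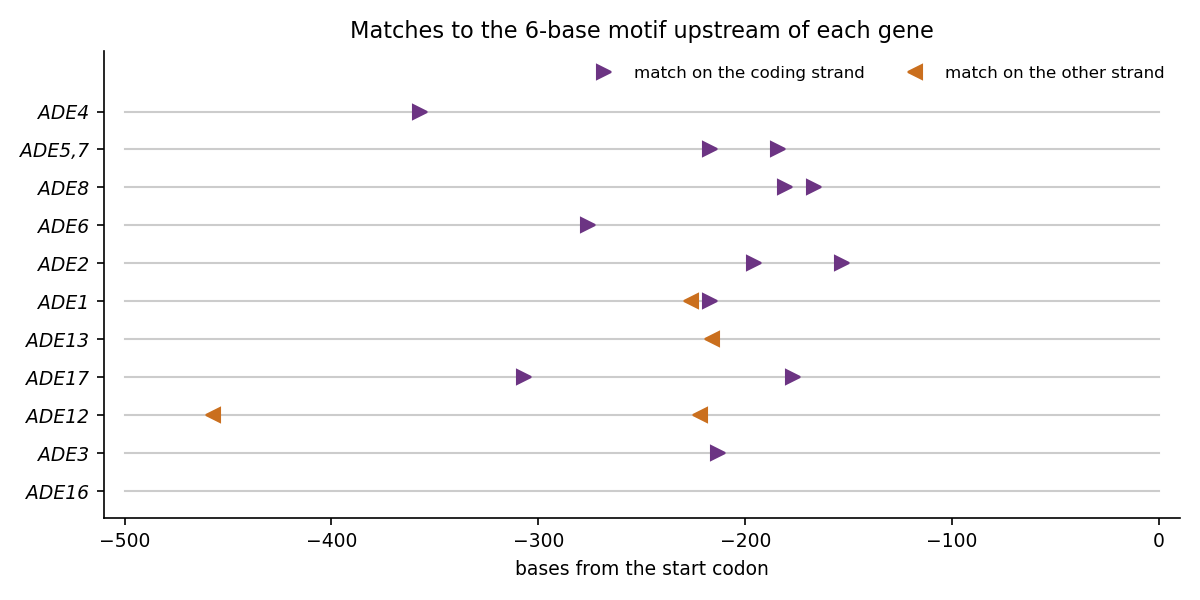
Positions of TGACTC on either strand in the 500 bases before the start codon (x axis, bases from the start codon) of the 10 purine synthesis genes and ADE16 in R64. Triangles that point right are matches on the coding strand and triangles that point left are matches on the other strand; most lie between 153 and 276 bases upstream, and ADE16 has none.

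The 10 genes spanned a wide range of levels within each library. Their median read density was 0.0838 in NRO (HS), against 0.197 in NRO, and 0.0550 in total RNA (HS), against 0.160 in total RNA. The medians of all 4280 models were 0.0159 in NRO (HS), against 0.0214 in NRO, and 0.0131 in total RNA (HS), against 0.0192 in total RNA. In these 4 libraries, 8, 9, 7 and 9 of the 10 genes lay above that median. The density of ADE3 was 64.1 times that of ADE13 in NRO (HS), against 47.6 times in NRO, and 209.6 times in total RNA (HS), against 36.7 times in total RNA.

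ADE3 had the highest density in all 4 libraries, and its interval lay above that of the next gene in each. In NRO the order was ADE3, ADE5,7, ADE1, ADE6, ADE8, ADE17, ADE4, ADE2, ADE13 and ADE12, and of the 9 pairs of neighbours only ADE6 and ADE8 had overlapping intervals. In total RNA, ADE8 and ADE5,7 came next after ADE3 and overlapped each other, followed by ADE6, ADE1 and ADE17, each apart from its neighbours, then by ADE2, ADE4 and ADE13, which overlapped, and by ADE12. After heat shock 6 of the 9 pairs overlapped in either library. In NRO (HS), neighbours overlapped among ADE8, ADE5,7 and ADE1, between ADE6 and ADE17, and along ADE2, ADE4, ADE13 and ADE12. In total RNA (HS), ADE8 stood apart below ADE3, while neighbours overlapped along ADE5,7, ADE1 and ADE6 and along ADE17, ADE2, ADE4, ADE13 and ADE12.

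**Figure D2:**
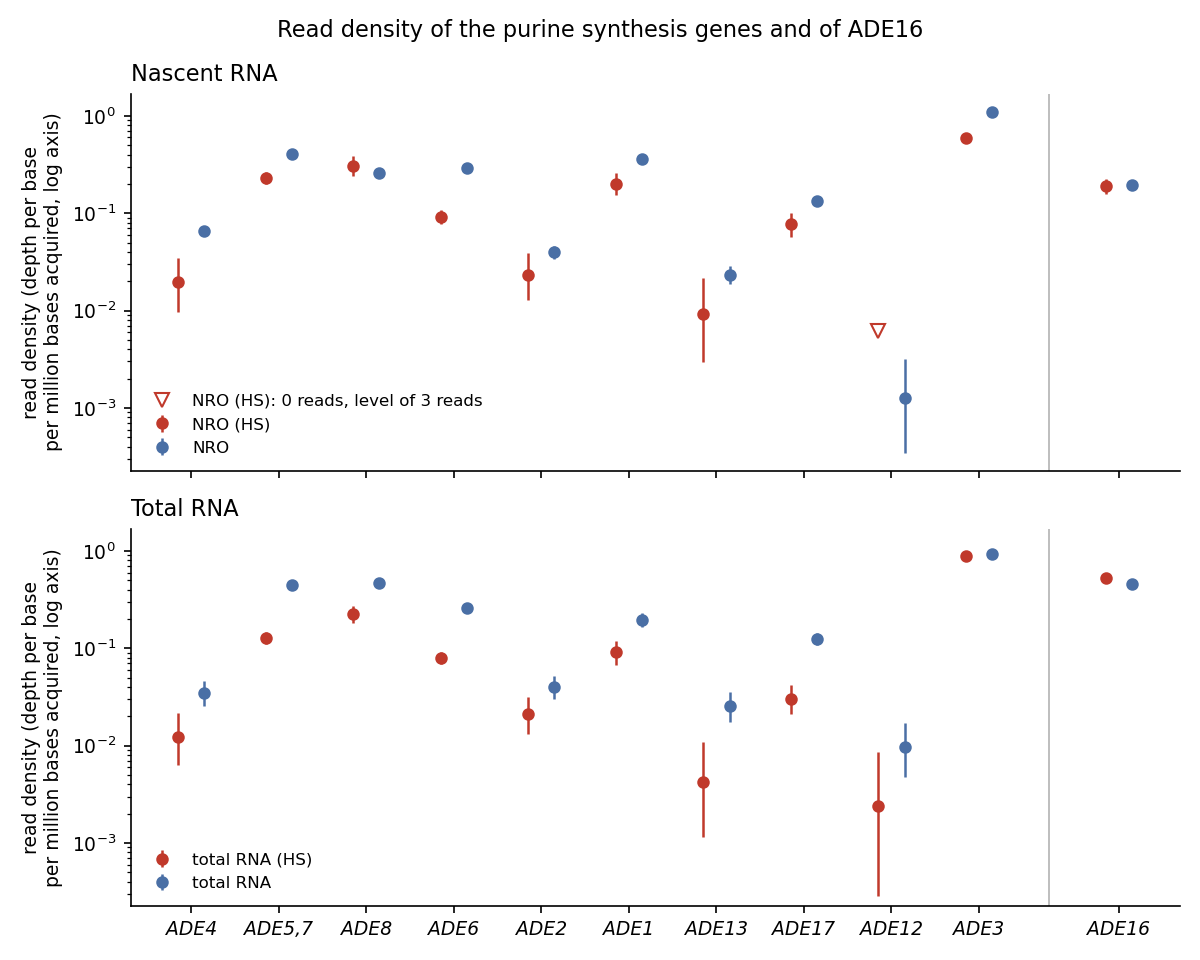
Read density (depth per base per 1000000 bases acquired, log axis) of each purine synthesis gene and of ADE16, nascent RNA above and total RNA below, with heat shock in red and log growth in blue. Bars are exact Poisson 95% intervals on estimated reads and cover counting error only; the open triangle is the level of 3 reads for ADE12, which had 0 reads in NRO (HS). ADE3 is highest in every library, at 0.587 in NRO (HS) and 0.885 in total RNA (HS).

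ADE4 (YMR300C) encodes the amidotransferase of the first committed step, and its measured region was chrXIII:865519-867007 on the minus strand. Its read density was 0.0195 in NRO (HS), against 0.0658 in NRO, and 0.0123 in total RNA (HS), against 0.0345 in total RNA. The gene was thus low in abundance and lower after heat shock in both kinds of RNA, although the heat shock values rested on 11 and 12 reads. The ratio was 0.297 (0.146 to 0.541) in nascent RNA and 0.355 (0.171 to 0.682) in total RNA.

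ADE5,7, ADE8 and ADE6 encode the enzymes of the glycinamide ribotide steps. ADE5,7 (YGL234W) specifies a protein with 2 activities, glycinamide ribotide synthetase and aminoimidazole ribotide synthetase (region chrVII:56626-58978, plus strand). Its density was 0.231 in NRO (HS), against 0.407 in NRO, and 0.127 in total RNA (HS), against 0.447 in total RNA. Both were lower after heat shock, the total RNA by more than 2-fold (ratio 0.285, 0.244 to 0.333) and the nascent RNA by less (0.567, 0.489 to 0.653). ADE8, the glycinamide ribotide transformylase gene (YDR408C, region chrIV:1288063-1288709, minus strand), had 0.306 in NRO (HS), against 0.261 in NRO. In total RNA it had 0.224 in total RNA (HS), against 0.470 in total RNA. Of the 9 genes with a nascent ratio, it was the only one above 1 (1.17), and the interval of that ratio, 0.907 to 1.51, included 1. Its total RNA ratio was 0.476 (0.373 to 0.603), so that the intervals of the nascent and the total RNA ratio did not overlap.

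ADE6 (YGR061C), the gene of formylglycinamidine ribotide synthetase, had the longest region of the 10 (chrVII:611619-615893, minus strand, 4275 bases). Its density was 0.0909 in NRO (HS), against 0.291 in NRO, and 0.0798 in total RNA (HS), against 0.262 in total RNA. Nascent and total RNA were lower by about the same factor, with ratios of 0.312 (0.263 to 0.369) and 0.304 (0.262 to 0.352).

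ADE2 and ADE1 encode the enzymes that carboxylate aminoimidazole ribotide and then couple it to aspartate. Loss of either gene lets a red pigment accumulate in yeast colonies. ADE2 (YOR128C, region chrXV:564422-566008, minus strand) had 0.0233 in NRO (HS), against 0.0396 in NRO, and 0.0214 in total RNA (HS), against 0.0402 in total RNA. Neither ratio passed 2-fold, at 0.589 (0.316 to 1.02) in nascent RNA and 0.532 (0.306 to 0.873) in total RNA, with 14 and 22 reads after heat shock. ADE1 (YAR015W, region chrI:169536-170387, plus strand) had 0.202 in NRO (HS), against 0.357 in NRO, and 0.0912 in total RNA (HS), against 0.196 in total RNA. Its total RNA ratio of 0.466 (0.332 to 0.645) passed 2-fold, and its nascent ratio of 0.565 (0.432 to 0.729) did not. The intervals of the ratios overlapped within each gene and between ADE2 and ADE1, so that no difference between them was detectable at this depth.

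ADE13, ADE17 and ADE12 encode the enzymes around IMP. Adenylosuccinate lyase, the product of ADE13 (YLR359W, region chrXII:844422-845864, plus strand), acts both before IMP and on the way to AMP. Its density was 0.00916 in NRO (HS), against 0.0232 in NRO, and 0.00422 in total RNA (HS), against 0.0256 in total RNA. These values rested on 5 and 4 reads after heat shock, and the ratios of 0.394 (0.124 to 0.952) and 0.165 (0.0425 to 0.464) were accordingly imprecise. ADE17 encodes a transformylase and IMP cyclohydrolase, which closes the purine ring (YMR120C, region chrXIII:507356-509115, minus strand). It had 0.0766 in NRO (HS), against 0.133 in NRO, and 0.0303 in total RNA (HS), against 0.125 in total RNA. As in ADE5,7, the total RNA was lower by more than 2-fold (0.243, 0.165 to 0.350) and the nascent RNA by less (0.576, 0.424 to 0.768).

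ADE12, the adenylosuccinate synthetase gene at the branch to AMP (YNL220W, region chrXIV:234528-235810, plus strand), was the least abundant of the 10. It had 0 reads in NRO (HS), which allows a density of up to 0.00618 (3 reads), against a density of 0.00125 in NRO (4 reads). In total RNA it had 0.00237 in total RNA (HS) (2 reads), against 0.00959 in total RNA (11 reads). At the NRO density only 0.607 reads would fall on ADE12 in NRO (HS), so that no nascent change was detectable and no ratio was formed. The total RNA ratio was 0.248, with an interval of 0.0267 to 1.13.

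ADE3 encodes the cytoplasmic C1-tetrahydrofolate synthase, which makes the formyl donor for Ade8 and for Ade17 and its paralogue (YGR204W, region chrVII:906106-908867, plus strand). Its density was 0.587 in NRO (HS), against 1.11 in NRO, and 0.885 in total RNA (HS), against 0.938 in total RNA. Of the 4280 models, 149 had a higher density in NRO (HS), against 72 in NRO, and 103 had one in total RNA (HS), against 99 in total RNA. ADE3 had a nascent ratio of 0.531 (0.488 to 0.576), within the range of the other genes. Its total RNA ratio of 0.944 (0.885 to 1.01) lay above the intervals of 8 of the other 9 genes, and only that of ADE12 reached it.

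Together the 10 genes took 0.533% of the reads in transcript models in NRO (HS), against 0.961% in NRO, a ratio of 0.555 (0.523 to 0.589). In total RNA the share was 0.587% in total RNA (HS), against 0.905% in total RNA, a ratio of 0.649 (0.617 to 0.682). ADE3 held much of each share. Without it, the nascent share was 0.258% in NRO (HS), against 0.484% in NRO, and the total RNA share was 0.168% in total RNA (HS), against 0.488% in total RNA. The ratio for these 9 genes was 0.532 (0.488 to 0.579) in nascent RNA and 0.344 (0.315 to 0.375) in total RNA, while ADE3 alone kept a total RNA ratio of 1.01 (0.943 to 1.07) on this scale. Summed over these 9 genes, total RNA was thus lower by a larger factor than nascent RNA.

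For total RNA, the question was whether the abundance of these transcripts differed between total RNA (HS) and total RNA. All 10 densities were lower in total RNA (HS), as were 65.8% of the 3282 features with a value in both. The median log2 ratio was −1.61, against −0.41 over these features. The log2 ratios ran from −2.60 in ADE13 through −2.04 in ADE17, −2.01 in ADE12, −1.81 in ADE5,7, −1.72 in ADE6, −1.49 in ADE4, −1.10 in ADE1, −1.07 in ADE8 and −0.91 in ADE2 to −0.08 in ADE3. Of the 10, 8 were lower by more than 2-fold, which held for 27.7% of all features, and none was higher by that factor, against 10.2% of all features. The libraries as a whole were shifted, since the median feature was at −0.41. After centring on that median, 6 of the 10 were still lower by more than 2-fold (ADE4, ADE5,7, ADE6, ADE12, ADE13 and ADE17), against 17.6% of all features, and ADE3 had a positive value of 0.32, so that its direction depends on the scaling. The counting interval lay below 1 for 8 of the 10, all but ADE12 and ADE3, and for 33.3% of all features. Features with more reads have narrower intervals, and most of the 10 lay above the median level.

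In nascent RNA the median difference was smaller, and fewer of the genes passed 2-fold. Of the 9 genes with a value, 8 were lower in NRO (HS) than in NRO, beside 54.0% of 2894 features. The median log2 ratio was −0.82, against −0.10 over these features. The log2 ratios were −1.75 in ADE4, −1.68 in ADE6 and −1.34 in ADE13, which passed 2-fold, and −0.91 in ADE3, −0.82 in ADE5,7 and ADE1, −0.79 in ADE17, −0.76 in ADE2 and 0.23 in ADE8, which did not. These 3 of 9 lower genes stand beside 23.1% of all features, and 0 of 9 were higher, against 16.2%. After centring, the same 3 genes were lower by more than 2-fold, against 20.5% of all features. The 2-fold count for nascent RNA was thus not far from that of the features at large, while the median was lower. With at least 10 reads in each library it was 2 of 8 genes, beside 14.1% of all features. With a 1.5-fold limit it was 8 of 9 genes, beside 34.4%, so that the nearness depends on the setting. The interval lay below 1 for 7 of the 9, all but ADE8 and ADE2, against 29.8% of all features. Nascent and total RNA were both lower after heat shock in 8 of the 9 genes, against 43.2% of the 2781 features with all 4 values. Of these 8, ADE3 was below 0 in total RNA on this scaling only.

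**Figure D3:**
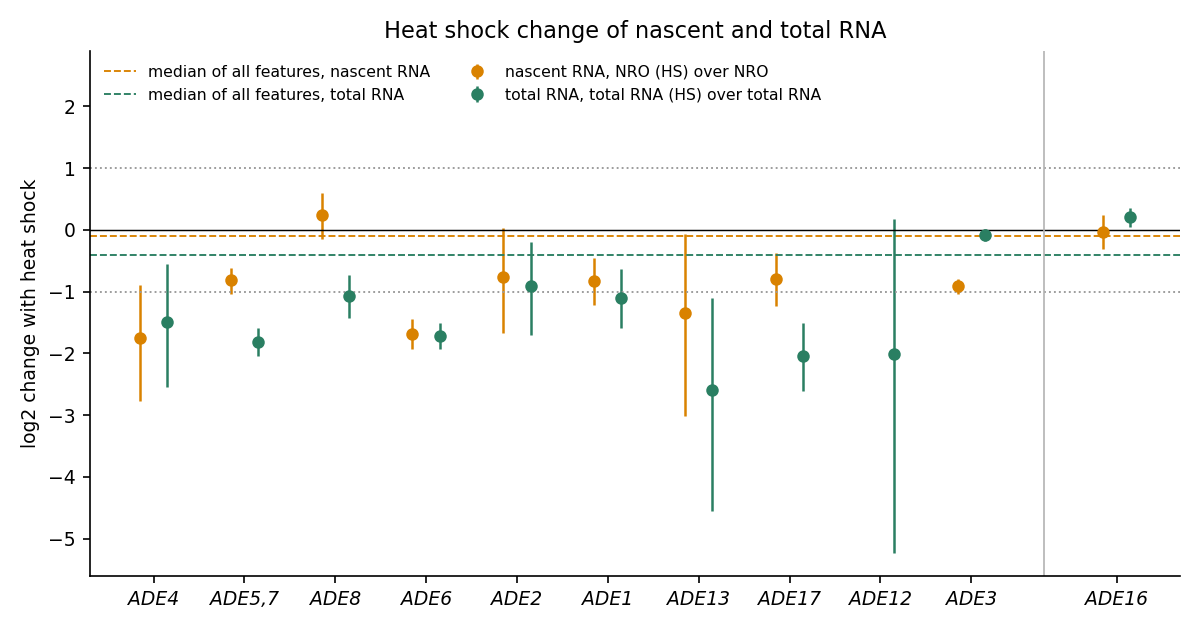
Log2 ratio of heat shock over log growth (y axis) for nascent RNA (orange) and total RNA (green) of each gene, with exact binomial 95% intervals for counting error. Dotted lines mark 2-fold and dashed lines the medians of all features, −0.10 in nascent RNA and −0.41 in total RNA. Total RNA of 8 of the 10 genes lies below the lower dotted line, ADE3 lies at −0.08, and ADE12 has no nascent value.

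The ratio of nascent to total RNA compares the transcription of a gene with the abundance of its RNA in the same growth condition. In log growth the 10 genes were near the middle of all features, with a median log2 ratio of NRO over total RNA of 0.04, against −0.01 over 3400 features. ADE4 (0.93) and ADE1 (0.87) had the highest ratios, with intervals above 1, at 1.90 (1.39 to 2.67) and 1.82 (1.53 to 2.19). ADE8 had a log2 ratio of −0.85 (ratio 0.555, 0.475 to 0.648), and ADE12 one of −2.94, which rested on 4 NRO reads against 11 total RNA reads. ADE3 (0.24), ADE6 (0.15), ADE17 (0.09), ADE2 (−0.02) and the pair ADE5,7 and ADE13 (both −0.14) lay close to equality. None of the 10 passed 2-fold upward, against 21.8% of all features, and only ADE12 did downward, against 19.0%.

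After heat shock the median log2 ratio of NRO (HS) over total RNA (HS) was 0.67 in the 9 genes with a value, against 0.22 over 2831 features. ADE17 (1.34), ADE1 (1.15) and ADE13 (1.12) passed 2-fold, a count of 3 of 9 beside 24.4% of all features, and none was lower by that factor, against 12.9%. The ratio was 2.53 (1.61 to 4.01) in ADE17 and 2.21 (1.51 to 3.26) in ADE1, and the interval of ADE13, 0.467 to 10.9, included 1. Centring on the median of all features left ADE17 alone past 2-fold, at 1.12, with ADE1 at 0.93 and ADE13 at 0.90, a count of 1 of 9 beside 19.7% of all features. ADE5,7 (0.86), ADE4 (0.67), ADE8 (0.45), ADE6 (0.19) and ADE2 (0.13) followed, and those of ADE6 and ADE2 become slightly negative when centred on the median of all features. ADE3 was the only one below equality, at −0.59 (ratio 0.663, 0.603 to 0.728).

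The shift of this ratio, that is the log2 nascent change less the log2 total RNA change, shows where the 2 kinds of RNA moved apart. It was 1.30 (0.82 to 1.79) in ADE8, 1.25 (0.58 to 1.91) in ADE17 and 0.99 (0.69 to 1.29) in ADE5,7, whose total RNA was lower by a larger factor than their nascent RNA. In ADE3 it had the opposite sign, at −0.83 (−0.98 to −0.68), since its nascent RNA was lower while its total RNA was close to the log growth level. These 4 intervals excluded both 0 and the median of all features, 0.20. Over the 2781 features with a value, the interval lay above 0 in 773 and below 0 in 431. It lay above that median in 593 and below it in 572. ADE13 had a shift of 1.26, but its interval ran from −0.73 to 3.24. ADE6 (0.04, −0.28 to 0.36), ADE1 (0.28), ADE2 (0.15) and ADE4 (−0.26) had intervals that included 0. Shifts past 2-fold upward were found in 3 of 9 genes (ADE8, ADE13 and ADE17), against 23.7% of the 2781 features, and past 2-fold downward in none, against 14.9%. Centred on the median of all features, ADE3 passed 2-fold downward as well, at −1.03. The median shift of 0.28 stood beside 0.20 for all features, and the genes differed among themselves, since the intervals of ADE8, ADE17 and ADE5,7 overlapped with neither that of ADE6 nor that of ADE3.

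**Figure D4:**
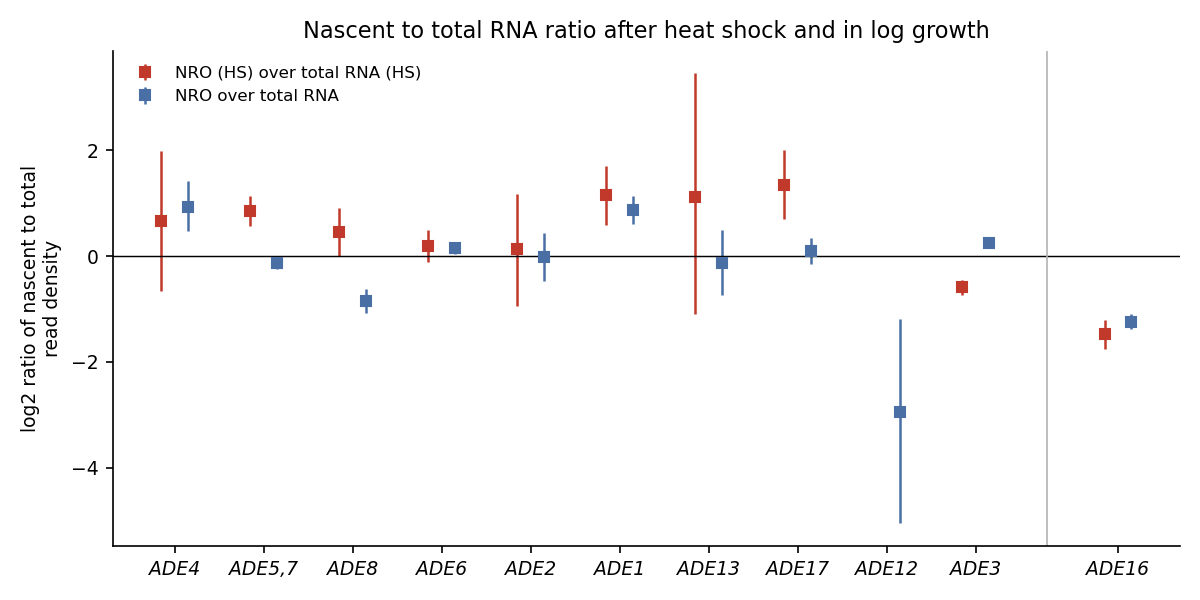
Log2 ratio of nascent to total read density (y axis) for each gene after heat shock (red, NRO (HS) over total RNA (HS)) and in log growth (blue, NRO over total RNA), with exact binomial 95% intervals for counting error. The red point lies well above the blue one in ADE5,7, ADE8 and ADE17 and below it in ADE3; ADE12 has no value after heat shock.

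ADE16 and ADE17 are paralogues that encode the same pair of enzyme activities, and their regions consist of mappable bases only, so that reads could be assigned to either gene. ADE16 (YLR028C, region chrXII:199472-201307, minus strand) had 0.190 in NRO (HS), against 0.194 in NRO, and 0.528 in total RNA (HS), against 0.459 in total RNA. Its nascent ratio was 0.981 (0.811 to 1.18) and its total RNA ratio 1.15 (1.03 to 1.28), both unlike those of ADE17. The log2 total RNA change of ADE16 less that of ADE17 was 2.24 (1.70 to 2.78), and the same difference in nascent RNA was 0.77 (0.28 to 1.26). The density of ADE16 was 2.48 times (1.78 to 3.50) that of ADE17 in NRO (HS), against 1.46 times (1.31 to 1.62) in NRO. In total RNA it was 17.4 times (12.4 to 25.2) that of ADE17 in total RNA (HS), against 3.68 times (3.14 to 4.33) in total RNA. ADE16 was thus the more abundant of the pair in each library.

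A wider list of 34 genes of purine metabolism and its regulation was set beside the 10, of which 30 were among the transcript models and IMD4, SHM1, GCV1 and HIS4 were not analysed here. Total RNA was lower by more than 2-fold in 17 of 28 with a value, beside the 27.7% of all features. It was higher by that factor in 0, beside 10.2% of all features, and the median log2 ratio was −1.11, against −0.41 over all features. Centred on the median of all features, 12 of 28 were lower by more than 2-fold, beside 17.6% of all features. Nascent RNA was lower by that factor in 7 of 27 beside 23.1% of all features, and higher in 2, beside 16.2%. Its median log2 ratio was −0.03, against −0.10 over all features. The share with lower nascent RNA was thus near that of all features.

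Among the regulators, BAS1 had a log2 change of −0.65 in nascent and −1.06 in total RNA. GCN4 had −0.87 in nascent and −2.05 in total RNA, with a total RNA ratio of 0.241 (0.141 to 0.386). PHO2 was at 3 reads in total RNA (HS), against 8 in total RNA, too few to compare. The counts by role below are of genes lower by more than 2-fold in total RNA, and each stands beside the same 27.7% of all features. In the GMP branch it was 3 of 4 genes, among them GUA1, the GMP synthetase gene, at −1.07 in nascent and −2.55 in total RNA. IMD3, also among them, had 3 reads in total RNA (HS). IMD2, an IMP dehydrogenase gene, had −2.66 in nascent RNA, with 4 reads in NRO (HS), against 167 in NRO. Its total RNA change was −1.15, with 8 reads in total RNA (HS). FCY2, the purine and cytosine permease gene, was lower in both, at −2.15 and −1.71. For the PRPP synthetases it was 2 of 3 with a value, such as PRS5 at −1.06, with a nascent value of 0.07. The other, PRS2, had 5 reads in total RNA (HS).

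Of the 5 other one-carbon genes, 3 were lower by more than 2-fold in total RNA, among them MTD1 with 1 read in total RNA (HS), against 5 in total RNA. SHM2, which encodes the cytoplasmic serine hydroxymethyltransferase, had −1.36 in nascent and −1.57 in total RNA. MIS1, the mitochondrial counterpart of ADE3, had −0.86 in nascent and −1.47 in total RNA, and its total RNA interval of 0.266 to 0.480 lay below that of ADE3. GCV2, the glycine decarboxylase gene, was at −1.28 in nascent and −0.90 in total RNA. GCV3, another glycine cleavage gene, named after its values were seen, went the other way, with a nascent ratio of 1.56 (1.26 to 1.91) and a total RNA ratio of 1.10 (0.972 to 1.25). In salvage and interconversion, 5 of 9 were lower by more than 2-fold in total RNA. Among them, AAH1 had 3 and ISN1 5 reads in total RNA (HS), and the depth of HPT1 rounded to 0 reads. The largest well-covered value there was that of ADK1, the adenylate kinase gene, at −2.15 in total and −0.30 in nascent RNA. APT1, the adenine phosphoribosyltransferase gene, was at −1.03 in total RNA and at 0.45 in nascent RNA, with 10 reads in NRO (HS). PNP1, the purine nucleoside phosphorylase gene, was at −0.45 in total RNA and at −1.11 in nascent RNA, with 4 reads in NRO (HS) and an interval of the ratio, 0.122 to 1.25, that included 1. AMD1, the gene of the AMP deaminase that returns AMP to IMP, was at −0.18 in total and 0.75 in nascent RNA, neither past 2-fold. HIS1, which starts histidine synthesis from ATP and PRPP, had −2.00 in total RNA and 0.05 in nascent RNA, while HIS7, a later gene of that pathway, had −0.52 in total and −1.12 in nascent RNA. ACT1, the actin gene, for comparison, was at 0.10 in nascent and −0.29 in total RNA.

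The presence of the 6-base core was compared with the heat shock change outside the 10 genes. Features with a match within 500 bases had a median log2 total RNA change of −0.43, and 26.2% of 446 were lower by more than 2-fold, while features without a match had −0.39 and 27.7% of 2819. For nascent RNA the medians were −0.05 with and −0.11 without a match. In the wider purine list, 11 genes with a match had a median total RNA change of −1.57 and 17 without had −1.06, and with the 300-base window the order turned round, at −1.03 and −1.15. With 500 bases, nascent RNA was lower by more than 2-fold in 5 of 11 genes with a match and in 2 of 16 without. With 300 bases it was 4 of 9 and 3 of 18. Outside the 10 genes the 500-base shares were 21.1% of 403 features with and 23.4% of 2475 without a match. The 300-base shares there were 23.2% of 254 features with and 23.1% of 2624 without a match. In the wider list the median log2 nascent changes were 0.05 with and −0.07 without a match in either window.

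Genes with a pattern like that of the 10 were sought among 785 features outside them with at least 50 estimated reads in each library. Likeness was the Euclidean distance between 3 log2 values (nascent change, total RNA change, and NRO over total RNA in log growth) and the medians of the 9 genes with all values, −0.82, −1.49 and 0.09. The nearest were FAS2, a fatty acid synthase subunit gene (distance 0.158), VAS1, the valyl-tRNA synthetase gene (0.307), TUB1, an alpha-tubulin gene (0.333), PSA1, the GDP-mannose pyrophosphorylase gene (0.356), and TEF1, a translation elongation factor gene (0.379). FAS2 had 0.372 in NRO (HS), against 0.596 in NRO, and 0.204 in total RNA (HS), against 0.548 in total RNA. TEF1 has a near-identical copy, TEF2, so that its value is uncertain. Of the wider purine list, SHM2 ranked 17, MIS1 38 and ADE16 499 among the 785. The 3 medians came from different genes, ADE1 for the nascent change, ADE4 for the total RNA change and ADE17 for the log growth ratio. The 3 medians together were thus not the values of any single gene of the 10. ADE4, ADE2, ADE13, ADE12 and ADE17 did not themselves reach 50 estimated reads in each library. The measure rests on 4 pooled values for each gene and describes these libraries only.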

How the data were processed

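NRO and total RNA libraries, 3 per group, were sequenced strand-specifically. Per the paper's methods, the authors aligned reads to sacCer2 with Maq (version not given in the sources used here), kept alignments with a mapping quality of at least 30, filtered out rRNA sequences and merged the replicates. What the authors deposited is signal (coverage), as summed depth and read density of 4280 transcript models, scaled to the bases acquired. A further 16 value columns, 4 per table, such as depths over other sets of bases, were not used. From the deposited coverage, the step of 1 base of depth gave the bases acquired, and the read length that divides most low depths gave the estimated reads. That length was 36 bases except in total RNA, where it was 38 bases. The methods state 36 bases for all reads, and the study's read count for total RNA is above the estimate used here. Because each group has 1 pooled value, no test across replicates was run. Ratios have exact binomial, levels exact Poisson and shifts normal-approximation 95% intervals, on estimated reads. Features at 0 in either library of a ratio were left out of it. On simulated data, the read step, the read length, the binomial interval of a ratio and the motif search were tested. The simulated reads had counting error only, and the shifts, levels, pooled shares and likeness were not tested in this way. The members and gene lists were chosen with earlier results of these data known. Named by rule were the 10 members, genes of the wider list past 2-fold with at least 50 reads, paralogues, regulators and adjacent steps, the 5 nearest features by likeness, and ACT1. Promoter windows came from R64, with 4259 of the 4280 models found there by systematic name. Alternatives covered scaling, a pseudocount of 0.01, a minimum of 10 reads, mappability, the fold limit, the interval and the members included. The whole promoter search, with windows of 500 and 300 bases, and the alternative total RNA read length of 36 bases were chosen after seeing the data. The tools were biopython 1.88, matplotlib 3.10.9, scipy 1.17.1, pandas 2.3.3 and numpy 2.4.6 under Python 3.11.15.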

Additional observations from a re-analysis of the deposited data

Results flagged for a closer look

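In 4 of the 9 genes with a value, the heat shock change differed between nascent and total RNA by more than counting error. The interval of this difference lay above 0 in 773 and below 0 in 431 of all 2781 features. A difference of this kind was thus common in these libraries. Each group is 1 pooled value, so that the difference has no replicate check. The log2 nascent change less the log2 total RNA change was 0.99 (0.69 to 1.29) in ADE5,7, 1.30 (0.82 to 1.79) in ADE8, 1.25 (0.58 to 1.91) in ADE17 and −0.83 (−0.98 to −0.68) in ADE3.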

How the results depend on the processing

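No paired analysis was possible because the values are pooled over the replicates of each group, and for the same reason no replicate could be left out. Of the main counts and medians, 103 values under an alternative stayed within 1.5 times the count or within the spread of the genes, and 4 did not. With a 1.5-fold limit, 8 of 9 genes were lower in nascent RNA (34.4% of all features), 2 of 10 had a higher NRO over total RNA ratio in log growth (31.4%), and 5 of 9 had a higher ratio after heat shock (37.5%). With centring on the median of all features, 1 of 9 (ADE17) was higher in the ratio after heat shock (19.7%), and the shift of ADE3 was −1.03. No result reversed by a called value, and ADE3 in total RNA, which was not past 2-fold, stood at 0.32 when centred. A pseudocount of 0.01 brought the log growth ratio of ADE12 to −0.80. Leaving out each gene in turn gave median log2 changes between −0.87 and −0.82 in nascent RNA and between −1.72 and −1.49 in total RNA. For the median ratio of nascent to total RNA they ran from −0.02 to 0.09 in log growth, so that its sign depends on the genes included, and from 0.56 to 0.76 after heat shock, and for the median shift from 0.21 to 0.64. With a total RNA read length of 36 bases, the intervals of 8 of 10 genes in total RNA excluded 1, as with 38 bases. The depth of NRO (HS), with a median of 8 reads per model, limits ADE12, ADE13, ADE4 and ADE2 most.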
